A study of Homo sapiens with 6 samples.

Results

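MHC class I molecules and the machinery that loads them with peptide were examined through 9 genes, HLA-B, HLA-C, HLA-E, HLA-F, B2M, TAP1, TAP2, TAPBP and NLRC5. Each was taken by its symbol from a deposited table of 60623 named genes, in which all 9 had a single row. Of these, 5 (HLA-E, B2M, TAP1, TAP2 and TAPBP) averaged 1 TPM or more over the 6 libraries and entered the test, and 4 did not. TPM is a transcript level that is scaled by length and to a common total per library. The libraries were labelled as RPMI-8226, an established line of human multiple myeloma, and were all taken at 48 h. Of these, 3 were of cells treated with XYA1353, a compound that the study's title links to NF-kB signalling, and 3 were of controls. The labels give no dose and do not say what the controls received or whether the libraries came from separate cultures, so a p-value covers no more than the spread among these libraries, and that spread may be technical.

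Class I molecules carry peptides made inside the cell to its surface, where CD8 T cells and natural killer cells inspect them. A polymorphic heavy chain pairs with the invariant light chain beta-2 microglobulin in the endoplasmic reticulum. Peptides cut by the proteasome enter through the transporter that TAP1 and TAP2 form together, and tapasin, the product of TAPBP, holds empty class I beside that transporter and helps to select the peptide. Transcription of these genes is known to be driven by NF-kB and interferon regulatory factors at promoter sites, and by the coactivator NLRC5, which acts with the RFX factors on a compound promoter element.

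The libraries showed few markers of the labelled cell type. Of 16 plasma cell markers 7, JCHAIN, CD38, IGHA1, TNFRSF17, MAF, IGLC3 and IGLC2, were listed at 0 in all 6 libraries, and 2, XBP1 and CCND2, had a mean of at least 10 TPM. All 12 erythroid markers had a mean of at least 10 TPM, against 0 of 9 B lineage, 0 of 6 T and NK and 0 of 7 monocyte and dendritic cell markers. The summed plasma cell markers stood at 140 to 188 TPM in XYA1353 and 104 to 110 TPM in control libraries, most of it XBP1, a transcription factor of the unfolded protein response. The summed erythroid markers ranged from 6411 to 15253 TPM in XYA1353 and from 9967 to 12356 TPM in control libraries, and the summed monocyte and dendritic cell markers from 5.96 to 10.8 TPM in XYA1353 and from 11.5 to 14.6 TPM in control libraries. The part of these markers in the results was not tested. XYA1353 replicate 3 stood closer to the controls than the other two for several of the genes below, so values are given per library.

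Promoter windows are shown first as background, and 4 of the 5 genes called as changed have one. None was found for HLA-E, and a link between motifs and the direction of change was not tested. RefSeq windows (GRCh38.p14) were found for 7 of the 9 genes, with 2 windows for TAP1, and the 250 bases before each annotated start were searched on both strands. Capitals mark matches to a form of the NF-kB site (GGG, any 2 bases, TT, any base, CC) or of the interferon-stimulated response element (GAAA, any 2 bases, GAAA). Sequences run 5′ to 3′ on the gene's own strand.
TAPBP, chr6:33314079-33314328, minus strand: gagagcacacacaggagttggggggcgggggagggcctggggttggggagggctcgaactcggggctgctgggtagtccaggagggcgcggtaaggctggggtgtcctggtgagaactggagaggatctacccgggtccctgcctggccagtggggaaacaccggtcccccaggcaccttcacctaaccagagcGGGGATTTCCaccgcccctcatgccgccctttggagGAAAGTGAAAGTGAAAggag
TAP1 window 1, chr6:32853705-32853954, minus strand: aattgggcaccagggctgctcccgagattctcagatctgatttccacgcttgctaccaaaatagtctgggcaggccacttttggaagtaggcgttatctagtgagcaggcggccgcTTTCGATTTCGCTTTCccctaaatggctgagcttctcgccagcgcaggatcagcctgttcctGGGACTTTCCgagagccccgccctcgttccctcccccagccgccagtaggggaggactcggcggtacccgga
TAP2, chr6:32838740-32838989, minus strand: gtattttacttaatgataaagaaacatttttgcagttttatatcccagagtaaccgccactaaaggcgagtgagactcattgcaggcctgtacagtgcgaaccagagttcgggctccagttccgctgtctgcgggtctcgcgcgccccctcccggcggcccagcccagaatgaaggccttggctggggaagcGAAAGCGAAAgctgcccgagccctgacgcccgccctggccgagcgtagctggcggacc
B2M, chr15:44711267-44711516, plus strand: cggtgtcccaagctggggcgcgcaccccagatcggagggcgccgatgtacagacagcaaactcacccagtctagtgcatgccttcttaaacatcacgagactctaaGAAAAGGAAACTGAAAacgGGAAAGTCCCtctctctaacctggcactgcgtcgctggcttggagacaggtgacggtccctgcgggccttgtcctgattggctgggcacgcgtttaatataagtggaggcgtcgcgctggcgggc
HLA-B, chr6:31357180-31357429, minus strand: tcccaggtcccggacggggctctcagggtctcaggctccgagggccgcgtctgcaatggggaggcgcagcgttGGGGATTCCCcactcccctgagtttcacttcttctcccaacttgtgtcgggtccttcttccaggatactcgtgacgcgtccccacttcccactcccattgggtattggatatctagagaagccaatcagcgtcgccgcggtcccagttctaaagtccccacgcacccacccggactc
HLA-C, chr6:31272093-31272342, minus strand: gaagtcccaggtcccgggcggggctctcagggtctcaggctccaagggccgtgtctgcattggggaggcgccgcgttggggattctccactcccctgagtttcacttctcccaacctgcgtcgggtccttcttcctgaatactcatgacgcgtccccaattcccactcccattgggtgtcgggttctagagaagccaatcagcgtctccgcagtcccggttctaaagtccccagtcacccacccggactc

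The NF-kB form was matched in 4 of the 8 windows, those of TAPBP, B2M, HLA-B and the first of TAP1, against 5.07% of all 35116 RefSeq windows of the same length. The response element form was matched in 5 of the 8, those of TAPBP, TAP2, B2M, HLA-F and the first of TAP1, against 3.02% of all windows. In TAPBP, B2M and TAP1 the response element matches came as overlapping pairs, while TAP2 held a single one, GAAAGCGAAA, and no NF-kB form. The NF-kB match read GGGGATTTCC in TAPBP, GGGACTTTCC in TAP1, GGGGATTCCC in HLA-B and, on the opposite strand, GGAAAGTCCC in B2M. No match to either form lay in the second TAP1 window or in the HLA-C window. Variants of either site outside these forms were not searched, so the lack of a match does not show the lack of a site. Of 2 shorter motifs that belong to the element read by the RFX factors and NLRC5, ATTGG, the Y box, was matched in 5 of the 8 windows, against 32.0% of all windows. TGACG, the core of the X2 box, was matched in 4 of the 8, those of HLA-B, HLA-C, B2M and TAP2, against 21.2%. HLA-B, HLA-C and B2M held both of these shorter motifs. A match describes letters and not a bound site.

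**Figure D1:**
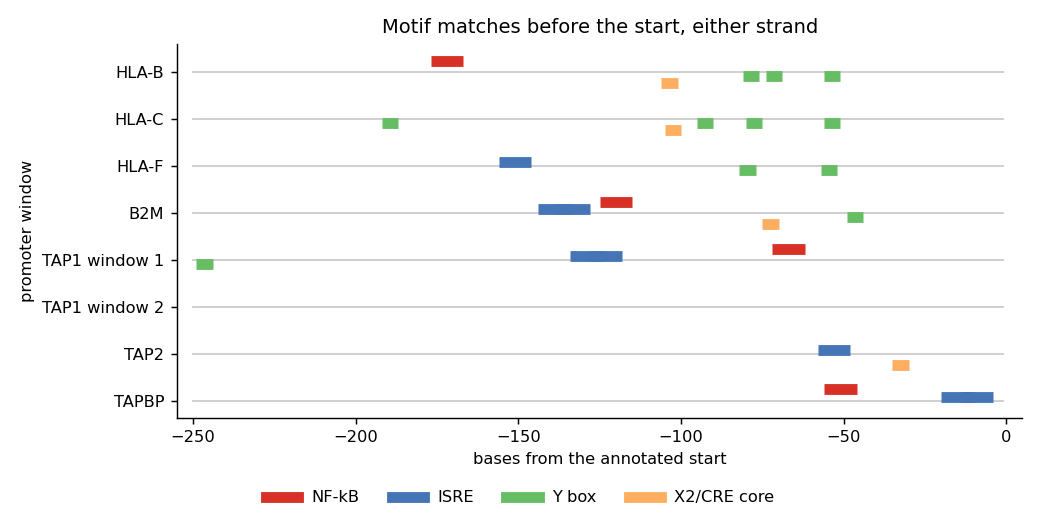
Positions of the 4 motifs, matched on either strand, in the 250 bases before the annotated start of each promoter window (x axis, bases from the start). The NF-kB form lies in the windows of HLA-B, B2M, TAP1 window 1 and TAPBP, and the interferon response element form in HLA-F, B2M, TAP1 window 1, TAP2 and TAPBP.

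Light chain transcripts were abundant while those of the classical heavy chains were close to absent. In XYA1353 libraries the levels ran in the order B2M, HLA-E, TAPBP, TAP2, TAP1, HLA-B, HLA-C, NLRC5 and HLA-F. The ranges of HLA-E and TAPBP overlapped there, as did those of TAP1 and HLA-B, of HLA-C and NLRC5, and of NLRC5 and HLA-F. In control libraries TAP2 stood above TAPBP without overlap, HLA-B and HLA-C overlapped, and all other neighbours down to HLA-C were apart. B2M was the 169th highest of the 60623 named genes by mean TPM in XYA1353 libraries and the 207th in control libraries, whereas HLA-B ranked 12506th in XYA1353 and 18486th in control libraries.

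With XYA1353, 4 of the 5 tested genes rose and TAP2 fell. Of 13392 genes tested, 4210 (31.4%) were called at a limma adjusted p under 0.05, 15.4% higher and 16% lower. The median log2 fold change of the 5 was 0.68, against 0.02 for all genes tested. Fold changes are of TPM + 1, XYA1353 minus control. TAP1 reached a mean of 1 TPM only through the XYA1353 libraries, so it had to be higher there to be tested, and the median above is a description. In bulk RNA, a change in the number of cells that carry a transcript and a change in the amount per cell cannot be told apart.

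**Figure D2:**
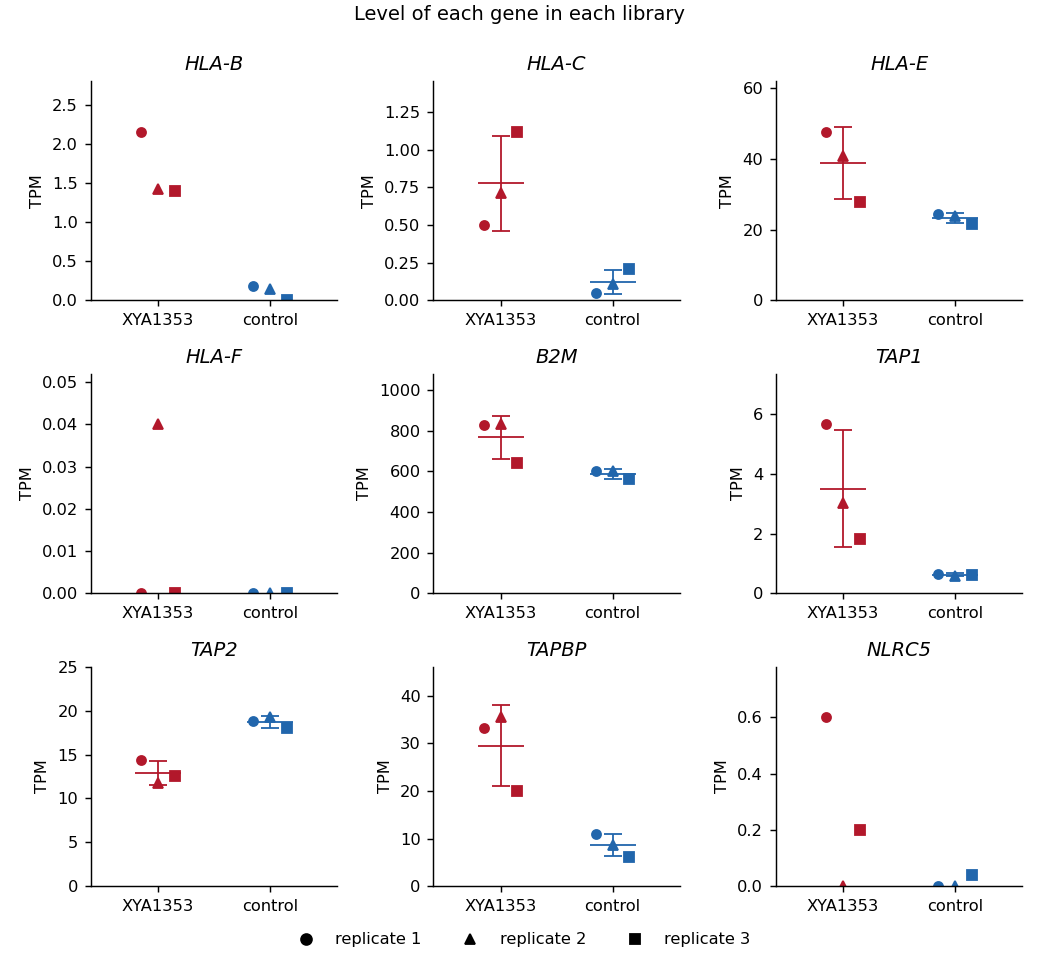
TPM of each of the 9 genes in each library (points, shaped by replicate number), XYA1353 left and control right, with the mean and SD over 3 libraries where no library is listed at 0. TAPBP, HLA-E, B2M, TAP1, HLA-B and HLA-C are higher in every XYA1353 library than in any control library, and TAP2 is lower; each panel has its own scale.

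TAPBP, which encodes tapasin (ENSG00000231925, GRCh38 chromosome 6, 33299694 to 33314387, minus strand), showed the largest log2 fold change of the 5 with a pseudocount of 1, whereas with a pseudocount of 0.1 that of TAP1 was larger (2.19, against 1.76 for TAPBP). It had 33.3, 35.5 and 19.9 TPM in XYA1353 replicates 1, 2 and 3, against 10.9, 8.69 and 6.21 TPM in control replicates 1, 2 and 3. All XYA1353 libraries lay above all control libraries, and replicate 3 was the lowest of each group. The mean was 29.6 ± 8.42 TPM in XYA1353 and 8.61 ± 2.37 TPM in control libraries (SD, n = 3 each), a ratio of 3.43. TAPBP rose by 1.66 on the log2 scale (SE 0.26, limma adjusted p = 0.00389), and 198 of the 13392 genes changed by more in either direction. The groups did not overlap for 47.6% of all genes tested, 23.8% higher and 23.8% lower.

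Transcripts of the 2 transporter subunits moved in opposite directions. TAP1 (ENSG00000168394, chromosome 6, 32845209 to 32853978, minus strand) had 5.66, 3.04 and 1.81 TPM in XYA1353 replicates 1, 2 and 3, against 0.66, 0.57 and 0.62 TPM in control replicates 1, 2 and 3. The control libraries lay close together, and the XYA1353 libraries were all higher and spread widely. TAP1 rose by 1.39 on the log2 scale (SE 0.31, limma adjusted p = 0.0146), or by 2.19 with a pseudocount of 0.1. In the main fit TAP1 passed the filter only through its XYA1353 levels, so its call is a description. Leaving out the 2 libraries numbered 1 ended the call of TAP1 (limma adjusted p = 0.0600).

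TAP2 (ENSG00000204267, chromosome 6, 32821833 to 32838780, minus strand) had 14.3, 11.8 and 12.6 TPM in XYA1353 replicates 1, 2 and 3, against 18.9, 19.2 and 18.0 TPM in control replicates 1, 2 and 3. Every XYA1353 library was lower than every control library, and the mean was 12.9 ± 1.32 TPM in XYA1353 and 18.7 ± 0.648 TPM in control libraries (SD, n = 3 each). It fell by 0.51 on the log2 scale (SE 0.10, limma adjusted p = 0.00893). AL669918.1, a protein-coding gene that overlaps TAP2 on the same strand, had 1.82, 1.65 and 2.25 TPM in XYA1353 replicates 1, 2 and 3, against 3.84, 3.36 and 4.0 TPM in control replicates 1, 2 and 3. AL669918.1 fell by 0.71 on the log2 scale (limma adjusted p = 0.0143), and its part in the fall of TAP2 was not tested. The ratio of TAP1 to TAP2 was 0.395, 0.259 and 0.144 in XYA1353 replicates 1, 2 and 3, against 0.0350, 0.0296 and 0.0345 in control replicates 1, 2 and 3. These ratios did not overlap (two-sided exact permutation p = 0.1, the smallest that 3 against 3 can give). The TAP1 transcript had the lower TPM of the pair in every library, and protein was not measured here.

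PSMB9, an immunoproteasome subunit gene that lies head to head with TAP1, had 0.26, 0.45 and 0.37 TPM in XYA1353 replicates 1, 2 and 3. In control libraries PSMB9 had 0.14 TPM in replicate 1 and was listed at 0 in replicates 2 and 3. TAP1 and PSMB9 overlap on opposite strands in the annotation, and whether counting used the strand is not given in the sources used here.

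B2M (ENSG00000166710, chromosome 15, 44711487 to 44718877, plus strand), the light chain gene, was the most abundant of the 9. It had 826, 831 and 643 TPM in XYA1353 replicates 1, 2 and 3, against 600, 603 and 560 TPM in control replicates 1, 2 and 3. The groups did not overlap, but XYA1353 replicate 3 stood only a little above the controls. The mean was 767 ± 107 TPM in XYA1353 and 588 ± 23.7 TPM in control libraries (SD, n = 3 each). B2M rose by 0.37 on the log2 scale (SE 0.10, limma adjusted p = 0.0302). A larger change in either direction was seen for 37.4% of the genes tested. B2M was no longer called when any 1 library but XYA1353 replicate 3 was left out (limma adjusted p from 0.0745 to 0.111), with no filter on low values (0.0923) and with eBayes without a trend (0.0666).

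HLA-E (ENSG00000204592, chromosome 6, 30489467 to 30494205, plus strand) encodes a nonclassical heavy chain that presents leader peptides of other class I chains to the CD94/NKG2 receptors of natural killer cells. It had 47.8, 40.9 and 27.8 TPM in XYA1353 replicates 1, 2 and 3, against 24.6, 23.8 and 21.8 TPM in control replicates 1, 2 and 3. The groups did not overlap, and XYA1353 replicate 3 was again the nearest to the controls. The mean was 38.9 ± 10.1 TPM in XYA1353 and 23.4 ± 1.47 TPM in control libraries (SD, n = 3 each). HLA-E rose by 0.68 on the log2 scale (SE 0.18, limma adjusted p = 0.0289). HLA-E was no longer called when any 1 library but XYA1353 replicate 3 was left out (limma adjusted p from 0.0723 to 0.103) and with no filter on low values (0.0862).

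**Figure D3:**
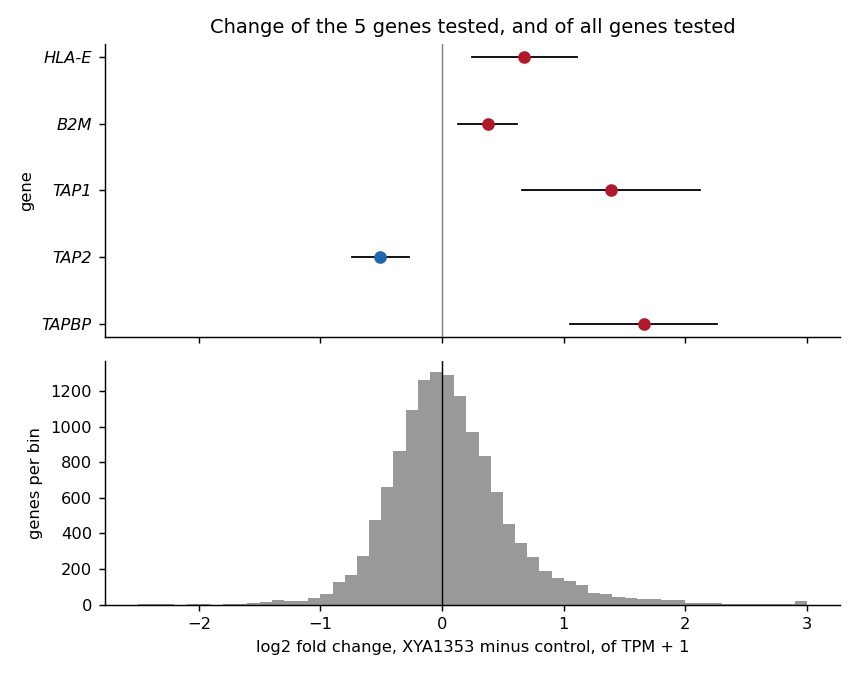
Log2 fold change of TPM + 1, XYA1353 minus control, with 95% confidence intervals for the 5 tested genes (upper panel), above the distribution of the same quantity over all 13392 genes tested (lower panel, values past either end drawn in the last bin). TAPBP (1.66) and TAP1 (1.39) lie in the right tail, B2M (0.37) and HLA-E (0.68) nearer the bulk, and TAP2 (-0.51) left of 0.

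The classical heavy chain genes HLA-B and HLA-C, whose products present peptide to CD8 T cells, were under the filter on low values. HLA-B (ENSG00000234745, chromosome 6, 31269491 to 31357188, minus strand) had 2.16, 1.43 and 1.40 TPM in XYA1353 replicates 1, 2 and 3, and 0.19 and 0.14 TPM in control replicates 1 and 2. It was listed at 0 in control replicate 3. HLA-C (ENSG00000204525, chromosome 6, 31268749 to 31272130, minus strand) had 0.50, 0.71 and 1.12 TPM in XYA1353 replicates 1, 2 and 3, against 0.05, 0.11 and 0.21 TPM in control replicates 1, 2 and 3. Both genes were higher in every XYA1353 library than in any control library. Of 13622 named genes with a mean under 1 TPM and a value above 0 in some library, 7.74% stood apart in that direction. XYA1353 replicate 1 was the highest library for HLA-B and XYA1353 replicate 3 the highest for HLA-C.

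With no filter on low values HLA-B and HLA-C were both called, in a fit that called 12% of 27014 genes. There the log2 fold change was 1.25 for HLA-B (SE 0.16, limma adjusted p = 0.00929) and 0.65 for HLA-C (SE 0.14, limma adjusted p = 0.0404). The same fit called TAP1 (limma adjusted p = 0.0498), TAP2 and TAPBP and not HLA-E, B2M, HLA-F or NLRC5. Heavy chain genes are near-identical in parts, HLA-B and HLA-C overlap in the annotation, and reads from alleles unlike the reference can be missed or assigned to a relative. How the authors placed such reads is not given in the sources used here, so the split between HLA-B and HLA-C is uncertain.

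HLA-F (ENSG00000204642, chromosome 6, 29722775 to 29738528, plus strand), another nonclassical heavy chain gene, was listed at 0 in every library except XYA1353 replicate 2, at 0.04 TPM. NLRC5 (ENSG00000140853, chromosome 16, 56989485 to 57083531, plus strand), the class I coactivator gene, had 0.60 and 0.20 TPM in XYA1353 replicates 1 and 3 and was listed at 0 in replicate 2. In control libraries NLRC5 had 0.04 TPM in replicate 3 and was listed at 0 in replicates 1 and 2. The groups overlapped for both genes. Depth is unknown for TPM values, so no detection limit can be set for either.

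HLA-E held nearly all of the transcripts of the 4 heavy chain genes read here; other heavy chain genes were not analysed here. The summed level of HLA-B, HLA-C, HLA-E and HLA-F was 50.4, 43.1 and 30.4 TPM in XYA1353 replicates 1, 2 and 3, against 24.8, 24.1 and 22.0 TPM in control replicates 1, 2 and 3. The mean was 41.3 ± 10.2 TPM in XYA1353 and 23.6 ± 1.49 TPM in control libraries (SD, n = 3 each), a ratio of 1.75 (two-sided exact permutation p = 0.1). HLA-E held 93.8 ± 1.82% of that sum in XYA1353 and 99.0 ± 0.0446% in control libraries. HLA-B and HLA-C together stood at 2.44 ± 0.269 TPM in XYA1353 and 0.233 ± 0.0208 TPM in control libraries, without overlap (two-sided exact permutation p = 0.1).

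B2M transcripts outnumbered these heavy chain transcripts per length in every library. The ratio of B2M to their sum was 16.4, 19.3 and 21.2 in XYA1353 replicates 1, 2 and 3, against 24.1, 25.0 and 25.5 in control replicates 1, 2 and 3. The ratio was lower in each XYA1353 library than in any control library, by 0.40 on the log2 scale on average, again at the smallest exact permutation p of 0.1. With HLA-B and HLA-C alone as the heavy chains, the difference in the ratio was -3.01 on the log2 scale, with control values that rest on levels near 0.

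**Figure D4:**
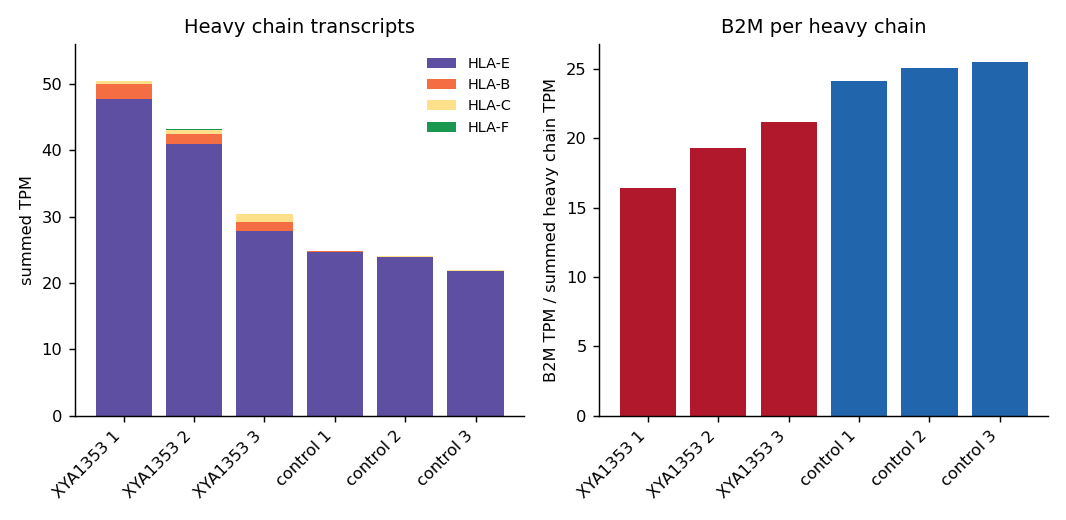
Left, TPM of the heavy chain genes HLA-E, HLA-B, HLA-C and HLA-F stacked for each library; right, the ratio of B2M TPM to that sum. The sum is 30.4 to 50.4 TPM in XYA1353 and 22.0 to 24.8 TPM in control libraries, nearly all of it HLA-E, and the ratio is 16.4 to 21.2 in XYA1353 and 24.1 to 25.5 in control libraries.

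The libraries of XYA1353 differed in how far these genes moved. Measured from the control mean on the log2 scale of TPM + 1, HLA-E was 1.00, 0.78 and 0.24 higher in XYA1353 replicates 1, 2 and 3. B2M was 0.49, 0.50 and 0.13 higher in the same order, and TAP1 2.04, 1.32 and 0.80 higher. TAPBP was 1.86, 1.95 and 1.15 higher. Replicate 3 had the smallest rise for these 4 genes, but not for HLA-C, and its fall in TAP2 (-0.53) lay between those of replicate 1 (-0.36) and replicate 2 (-0.63).

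The other genes of the pathway were read from 7 lists holding 110 genes, of which 79 were tested. Of these, 20 rose and 10 fell, 38.0% in all, beside the 31.4% of all genes. Without XYA1353 replicate 2 the number called was 19, and without both libraries numbered 1 it was 13, when 2608 and 1432 of all 13392 genes were called.

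**Figure D5:**
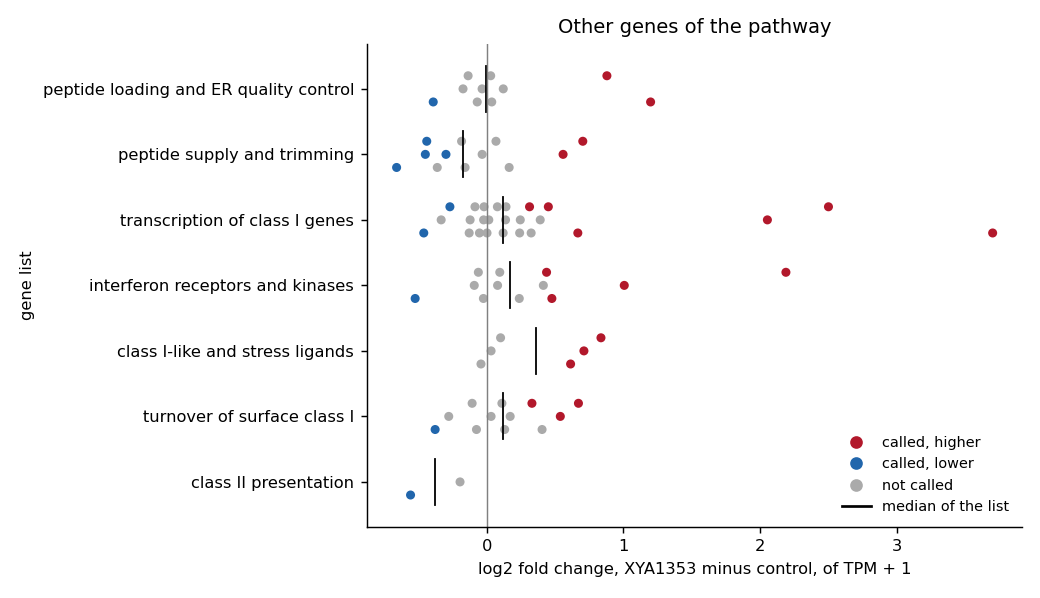
Log2 fold change of TPM + 1, XYA1353 minus control, of each tested gene of the 7 pathway lists, coloured by its call, with the median of each list as a black bar. RELB (3.70), NFKB2 (2.50), SOCS1 (2.19) and IRF1 (2.05) lie farthest right, and most points lie near 0.

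Of 10 tested genes of peptide loading and of quality control in the endoplasmic reticulum, 2 rose, 1 fell and 7 missed the threshold, near the 31.4% called of all genes (median log2 fold change 0.00). TAPBPL, a relative of tapasin that edits peptides, was picked for mention from its values and, like TAP1, reached a mean of 1 TPM only through the XYA1353 libraries, so its call is a description. It had 3.21, 3.64 and 2.89 TPM in XYA1353 replicates 1, 2 and 3, against 0.67, 1.15 and 0.75 TPM in control replicates 1, 2 and 3 (log2 fold change 1.20, SE 0.19, limma adjusted p = 0.00386). HSPA5, the gene of the chaperone BiP, rose by 0.88 (limma adjusted p = 0.0133), a call lost without control replicate 3 (0.0565) and with no filter on low values (0.0502). UGGT1, a glucosyltransferase that returns misfolded glycoproteins to their chaperones, fell by 0.39 (limma adjusted p = 0.0115), a call lost without both libraries numbered 1 (0.0913). CALR, CANX and PDIA3, which encode calreticulin, calnexin and ERp57 of the folding and loading steps, had log2 fold changes of -0.14, 0.03 and 0.04 and were not called.

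Genes that supply and trim peptides went in both directions. Of 12 tested, 2 rose and 4 fell, and 6 missed the threshold (median log2 fold change -0.17), beside 31.4% called of all genes. PSME1, a subunit of the PA28 activator of the proteasome, stood at 98.9, 108 and 97.0 TPM in XYA1353 replicates 1, 2 and 3, against 58.7, 70.3 and 57.4 TPM in control replicates 1, 2 and 3. Its log2 fold change was 0.70 (SE 0.09, limma adjusted p = 0.00251). ERAP1, the aminopeptidase that trims peptides in the endoplasmic reticulum, rose by 0.56 (limma adjusted p = 0.0423), but was not called when any 1 library but XYA1353 replicate 3 was left out (limma adjusted p from 0.0552 to 0.132), nor with no filter, rescaling or eBayes without a trend (0.0574 to 0.110). The 4 that fell were cytosolic peptidase genes, BLMH by 0.66 (limma adjusted p = 0.00255), and THOP1, LAP3 and IDE by 0.30, 0.44 and 0.45. The last 3 were picked for mention from their values, and the call of IDE was lost without control replicate 3 (limma adjusted p = 0.0609) and that of THOP1 with quantile normalization (0.0540). Without both libraries numbered 1, THOP1, LAP3 and IDE were not called (limma adjusted p from 0.0667 to 0.102). The immunoproteasome gene PSMB8 reached at most 0.10 TPM, while PSMB10 stood at 28.4 to 40.2 TPM in XYA1353 and 35.9 to 43.8 TPM in control libraries and was not called.

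Among regulators of class I transcription, IRF1 and 3 NF-kB subunit genes rose while most others were not called. Of 25 tested, 6 rose and 2 fell, and 17 missed the threshold (median log2 fold change 0.12), near the 31.4% called of all genes. IRF1, an activator that binds the interferon response element, had 20.0, 17.3 and 13.4 TPM in XYA1353 replicates 1, 2 and 3, against 3.21, 3.24 and 3.31 TPM in control replicates 1, 2 and 3. The control values lay within a narrow range and every XYA1353 library was well above them (log2 fold change 2.05, SE 0.15, limma adjusted p = 0.00122). RELB rose by 3.70 (limma adjusted p = 0.00122) and NFKB2 by 2.50 (limma adjusted p = 0.00151), both of noncanonical NF-kB. RELB reached a mean of 1 TPM only through the XYA1353 libraries, so it had to be higher there to be tested and its call is a description. RELB had 21.5, 21.0 and 9.89 TPM in XYA1353 replicates 1, 2 and 3, against 0.14, 0.31 and 0.63 TPM in control replicates 1, 2 and 3. NFKB1 rose by 0.45 (limma adjusted p = 0.0134), a call lost without XYA1353 replicate 2 or control replicate 3 (0.0532 each), while RELA of canonical NF-kB had a log2 fold change of 0.00. STAT2 rose by 0.67 and USF2 by 0.31, and NFYA and SUZ12 fell by 0.46 and 0.27. NFKB1 and these 4 were picked for mention from their values, and of the 4 only STAT2 kept its call without any 1 library. Without both libraries numbered 1, neither NFKB1 nor any of the 4 was called (limma adjusted p from 0.0579 to 0.119). The RFX genes were not called, with log2 fold changes of 0.14 for RFX5, 0.14 for RFXANK and 0.39 for RFXAP. EZH2, the histone methyltransferase of Polycomb complexes, had a log2 fold change of 0.01 (95% confidence interval -0.14 to 0.17). The number called was 4 without XYA1353 replicate 2, 5 without any 1 control library, and 4 without both libraries numbered 1. The genes called in the whole table were then 2608, 2835 to 2968, and 1432, against 4210 with all 6 libraries.

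Interferon receptor and kinase genes showed 4 rises and 1 fall among 12 tested, and 7 that missed the threshold (median log2 fold change 0.17). Over all genes tested, 31.4% were called. IFNGR2, a chain of the interferon gamma receptor, had 32.3, 35.5 and 30.3 TPM in XYA1353 replicates 1, 2 and 3, against 13.5, 17.4 and 16.5 TPM in control replicates 1, 2 and 3 (log2 fold change 1.01, SE 0.12, limma adjusted p = 0.00174). TYK2, a kinase of the type I interferon receptor, rose by 0.48 (limma adjusted p = 0.00331), and PTPN11, the gene of the phosphatase SHP2, fell by 0.53 (limma adjusted p = 0.00211). SOCS1, an inhibitor of that signalling, rose by 2.19 (limma adjusted p = 0.00637) and IFNGR1 by 0.44 (limma adjusted p = 0.0490), both picked for mention from their values. SOCS1 averaged under 1 TPM in control libraries and was tested only through its XYA1353 levels. IFNGR1 was not called when any 1 library but XYA1353 replicate 3 was left out (limma adjusted p from 0.0889 to 0.161), nor with no filter, quantile normalization, rescaling or eBayes without a trend (0.0534 to 0.112).

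Class I-like genes and ligands of the NKG2D receptor were read for comparison. Of 19 listed, 13 had a mean under 1 TPM, all 5 CD1 genes being listed at 0 in every library. Of the 6 tested 3 rose and 3 were not called, beside 31.4% called of all genes. MR1, which presents vitamin metabolites to MAIT cells, had 11.3, 8.39 and 8.92 TPM in XYA1353 replicates 1, 2 and 3, against 4.72, 6.44 and 5.16 TPM in control replicates 1, 2 and 3 (log2 fold change 0.71, limma adjusted p = 0.0137). The MR1 call was lost without control replicate 1 or 3 (limma adjusted p from 0.0512 to 0.0546) and without both libraries numbered 1 (0.103). The stress ligand genes ULBP1 and ULBP2 also rose, by 0.61 and 0.84, and were picked for mention from their values. ULBP1 was not called when XYA1353 replicate 1 or 2 or control replicate 1 or 3 was left out (limma adjusted p from 0.115 to 0.129), nor with no filter, quantile normalization or rescaling (0.0531 to 0.130). Without both libraries numbered 1, neither ULBP1 nor ULBP2 was called (limma adjusted p = 0.227 and 0.0807). The related ligand genes MICA and MICB had log2 fold changes of 0.10 (95% confidence interval -0.12 to 0.32) and -0.04 (95% confidence interval -0.29 to 0.21).

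Genes of the turnover of surface class I gave 3 rises and 1 fall among 12 tested, with 8 not called, near the 31.4% called of all genes. MARCHF9, a membrane ubiquitin ligase gene that the table lists under a date in place of its older symbol and that was matched by identifier, rose by 0.67 (limma adjusted p = 0.0126), a call lost without XYA1353 replicate 2 (0.0551). SPPL2A, an intramembrane protease gene, rose by 0.54 (limma adjusted p = 0.0111), a call lost without both libraries numbered 1 (0.0888). SUSD6, of a complex that directs class I to lysosomes, fell by 0.38 (limma adjusted p = 0.0323), a call lost on leaving out each library in turn (limma adjusted p from 0.0564 to 0.109). SYVN1, a ligase gene of endoplasmic reticulum degradation picked for mention from its values, rose by 0.33 (limma adjusted p = 0.0434). With the replicate number as a block SYVN1 was not called (limma adjusted p = 0.0762), nor when XYA1353 replicate 1 or 2 or control replicate 1 or 2 was left out. The number called was 1 without XYA1353 replicate 2, when 2608 of all 13392 genes were called, and 2 without XYA1353 replicate 1, control replicate 1 or control replicate 2, when 2843 to 3182 were.

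Class II presentation genes were nearly absent from all libraries. Of 15 listed, 13 had a mean under 1 TPM and 7, HLA-DRA among them, were listed at 0 in every library. HLA-DOB, a chain of a class II editing partner, was tested and not called. IFI30, a lysosomal thiol reductase gene, had 88.8, 81.4 and 118 TPM in XYA1353 replicates 1, 2 and 3, against 149, 130 and 142 TPM in control replicates 1, 2 and 3. It fell by 0.56 (SE 0.14, limma adjusted p = 0.0193), but was not called when XYA1353 replicate 1 or 2 or control replicate 1 or 3 was left out (limma adjusted p from 0.0657 to 0.0724), with no filter on low values or with quantile normalization.

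Position in the MHC region and likeness to TAPBP were read as descriptions. Between the start of HLA-F and the end of TAPBP on chromosome 6 (29722775 to 33314387), GENCODE holds 149 protein-coding genes, and 88 that are not among the 9 were tested. Of these, 31 were called higher and 10 lower, 46.6% in all beside 31.4% of all genes, with a median log2 fold change of 0.11. This interval was chosen after the data were seen. The genes whose log2 values over the 6 libraries were most like those of TAPBP were DUSP13, a phosphatase gene (Pearson's r = 0.996), ITM2C, a membrane protein gene (r = 0.994), and ASNSP1, a pseudogene (r = 0.994). Over 9824 genes compared, 430 had an r of at least 0.95, and each r takes in the difference between the groups as well as the spread within them.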

How the data were processed

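Per the labels' protocols, RNA came from an RNeasy kit and was made into SMARTer mRNA libraries. The authors deposited TPM per gene, in a table with 6 library columns and 2 columns of their group means, which were not used. The submitters' processing notes name the mouse builds GRCm38 and mm10, but the table held 0 mouse identifiers. No aligner, counter or annotation is named: not given in the sources used here. TPM keeps no record of depth, which is unknown here, and the number of libraries limits the precision. Coordinates were taken by identifier from GENCODE (GRCh38). Rescaling, as an alternative, left out mitochondrial, immunoglobulin and ribosomal RNA genes.

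Replicate numbers came from the sample titles. The titles and columns name the treated libraries P17, and the genotype label of these samples gives XYA1353. Named genes with a mean of at least 1 TPM (13392) were fitted as log2(TPM + 1) with limma 3.58.1 (eBayes with a trend) in R 4.3.3, and called at a two-sided Benjamini-Hochberg adjusted p under 0.05. Sums and ratios were compared by exact permutation tests. The limma fit was tested on simulated data, and motifs were searched with Python 3.11.15. The genes and lists were chosen with earlier results of these data known. The genes named were the 9 themselves, the 3 called genes of each list that changed most at a mean of 5 TPM or more (or the tested gene with the largest change), and the 3 genes most like TAPBP. Other list genes named were picked after their values were seen. Alternatives covered the pseudocount, filter, scaling, trend, replicate block and each library. Deviations from the group means of same-numbered libraries correlated at 0.111, 0.114 and 0.133 across genes (other pairs -0.116 to -0.002). Deviations cancel within each group, so the negative values of the other pairs follow from the positive ones. The numbers may pair the libraries. The main fit and the permutation tests did not use them, while the replicate block and the sign-flip tests did.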

Additional observations from a re-analysis of the deposited data

How the results depend on the processing

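The direction of the 5 tested genes held under every alternative that could fit them, and TAP1 was left out where a mean of at least 5 TPM was asked. Of the 5, TAP2 and TAPBP kept their calls throughout. The replicate block changed the call of none of the 5 (4286 genes in the table and 31 in the lists were called with it), and of the list genes named that of SYVN1 alone. The number of these genes called was also 5 with no filter (then HLA-B and HLA-C in place of B2M and HLA-E), and with each scaling or a pseudocount of 0.1. It was 4 with eBayes without a trend and with a mean of at least 5 TPM. Leaving out any 1 library gave 3 to 5, from 2608 to 4460 genes in the table and from 19 to 31 in the lists. Without both libraries numbered 1, chosen after seeing the data, 2 of the 5, 1432 genes and 13 list genes were called, from 4 libraries in place of 6. The summed heavy chain level was 0.81 higher on the log2 scale, 0.79 with median-of-ratios scaling and 0.64 to 0.99 without any 1 library, and B2M per heavy chain -0.40, or -0.49 to -0.30 without any 1 library. A paired sign-flip test of each gave p = 0.25, the smallest exact value for 3 pairs. Without depth, values near 0 such as those of HLA-B, HLA-C, HLA-F and NLRC5 could be given no counting error.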
